A study of Mus musculus with 8 samples.

Results

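Neutrophils carry their killing proteins in granules that are filled in a fixed order as the cell matures. Primary (azurophil) granules come first, at the promyelocyte stage, and hold myeloperoxidase, lysozyme and the serine proteases. Specific granules follow, with cathelicidin and neutrophilic granule protein, and the cytosol then fills with the calcium-binding pair S100A8 and S100A9. PU.1, C/EBP factors, MYB and RUNX1 are known to act on the regulatory regions of these genes, and their transcripts already appear at low level in progenitors that are being primed for the granulocyte fate.

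The 10 genes described here are the rows of the deposited count table, out of 54532 genes in all, whose symbol is a chosen neutrophil granule gene. Those counted as primary are Mpo, Elane, Prtn3, Ctsg, Ms4a3 and Lyz2, and those counted as later are Camp, Ngp, S100a8 and S100a9. Ms4a3 encodes a membrane protein that is made alongside the primary granule proteins rather than a granule enzyme, lysozyme is held in specific granules too, and S100a8 and S100a9 are cytosolic. All 10 passed the filter on low counts.

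RNA was sequenced from LSK cells, the lineage-negative, Sca-1 and c-Kit positive marrow fraction that holds stem cells and early multipotent progenitors, of C57BL/6 mice. There were 3 libraries from AML1/ETO mice (genotype Runx1-Runx1t1, the fusion made by the t(8;21) translocation of acute myeloid leukaemia) and 5 from wild-type controls. Both groups had been given 4 injections of poly(I:C) at 5 mg/kg on alternate days, and cells were sorted 4 weeks later. The labels give neither age nor the promoter or Cre that drives the fusion, and do not call each library a separate animal. The p-values therefore rest on the spread among these libraries alone, which may be technical.

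Libraries held 14693080 to 17527043 counted reads. Runx1t1, the ETO part of the fusion, stood at 53.9 to 123 CPM (read counts scaled to a common library size) in the AML1/ETO libraries and at 1.58 to 7.68 CPM in the controls. Xist, made by the inactive X, was counted 28559 to 33151 times in AML1/ETO and 0 to 111 times in control libraries, and the Y-linked gene Ddx3y had 0 against 3688 to 5038. Genotype and sex therefore cannot be told apart in any comparison here. Of the sorting markers, Kit stood at 378 to 469 CPM in the controls and 913 to 1697 CPM in AML1/ETO. Ly6a, the gene of Sca-1, was low in the controls (8.26 to 23.4 CPM) and stood at 221, 256 and 921 CPM in AML1/ETO. In bulk RNA, fewer cells of a type and less RNA per cell cannot be told apart.

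How the granule genes stood in cells with the fusion was read from the 3 AML1/ETO against the 5 control libraries. Elane, Prtn3, Ms4a3 and Lyz2 of the primary genes and Camp and Ngp of the later ones fell. No member rose. Mpo, Ctsg, S100a8 and S100a9 did not pass the test (edgeR quasi-likelihood test over 15009 genes, Benjamini-Hochberg adjusted p under 0.05). Thus 4 of 6 primary and 2 of 4 later members were called lower. Of all tested genes 14.2% were called lower, 11.6% higher and 25.7% in either direction. Each of 8 members had every AML1/ETO library below every control, as had 17.5% of all tested genes. The median log2 fold change was −2.44 over the primary members, −3.48 over the later members and −0.09 over all tested genes. The members did not move evenly within either class: Ctsg was level with the controls or above them, while Elane and 3 later genes lacked a read in AML1/ETO libraries 1 and 3.

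**Figure D1:**
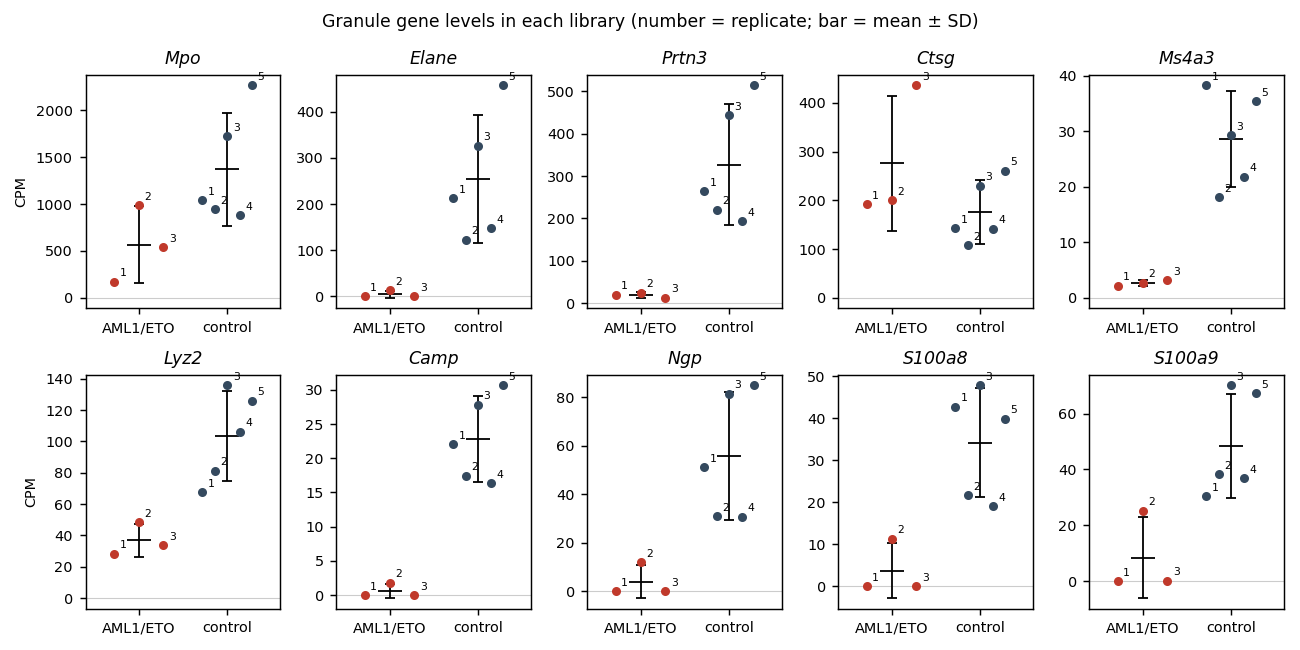
Normalised level (CPM, y axis) of each granule gene in the 3 AML1/ETO (red) and 5 control (dark) libraries; numbers are replicates and bars are mean ± SD. For Ctsg AML1/ETO library 3, at 436 CPM, lies above every control and libraries 1 and 2 lie among them, and AML1/ETO library 2 supplies nearly all the AML1/ETO reads of Elane, Camp, Ngp, S100a8 and S100a9.

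Mpo encodes myeloperoxidase, the haem enzyme that makes hypochlorous acid and the classical marker of myeloid commitment (ENSMUSG00000009350, chromosome 11, 87793581 to 87804413, plus strand, mm10). AML1/ETO libraries 1, 2 and 3 stood at 172, 986 and 542 CPM. Controls 1 to 5 stood at 1040, 946, 1725, 883 and 2268 CPM. Library 2 lay within the control range, so the groups overlapped, and libraries 1 and 3 lay below it. The means were 567 ± 408 CPM (SD, n = 3) and 1372 ± 604 CPM (SD, n = 5), and Mpo did not pass (log2 fold change −1.28, SE 0.48, edgeR adjusted p = 0.0721). With AML1/ETO library 2 left out it passed as lower, at −1.95 (adjusted p = 0.0131), as it did with no filter on low counts, at −1.25 (adjusted p = 0.0314). Over all alternatives the adjusted p ran up to 0.391.

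Elane encodes neutrophil elastase, a serine protease that degrades bacterial proteins and matrix (ENSMUSG00000020125, chromosome 10, 79886247 to 79888215, plus strand). AML1/ETO libraries 1, 2 and 3 gave 0, 206 and 0 reads, or 12.9 CPM in library 2. Controls 1 to 5 stood at 213, 123, 326, 148 and 458 CPM. Every AML1/ETO library lay below every control. Elane fell to a mean of 4.29 ± 7.43 CPM (SD, n = 3) from 253 ± 139 CPM (SD, n = 5), with a log2 fold change of −5.86 (SE 1.23, edgeR adjusted p = 0.00462). Against libraries 1 and 3 alone, with a floor of 3 reads per library, the controls were at least 1197-fold higher. Of 729 genes with a control mean at or above that of Elane, Elane was the 1 gene at 0 in library 1 and again in library 3; none was at 0 in library 2. With limma-voom and quality weights the call was lost (adjusted p = 0.133, the highest of a range from 1.45e-05 over the alternatives).

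Prtn3 encodes proteinase 3, the protease closest to elastase in position on the chromosome: its gene (ENSMUSG00000057729, chromosome 10, 79874476 to 79883174, plus strand) lies just upstream of Elane. AML1/ETO libraries 1, 2 and 3 stood at 19.9, 24.4 and 12.4 CPM. Controls 1 to 5 stood at 264, 220, 444, 194 and 515 CPM. The groups were far apart, and unlike Elane the gene kept reads in every AML1/ETO library. Prtn3 fell 17.3-fold (log2 fold change −4.11, SE 0.41, edgeR adjusted p = 3.00e-05), and it passed under all 18 alternatives. Its annotated span overlaps the start of Plppr3 on the other strand. The sources used here do not give the strand setting of the counting, and reads in the overlap could not be told apart. Plppr3 had 201 CPM in the controls and 199.9 CPM in AML1/ETO (log2 fold change −0.01, adjusted p = 0.990).

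Ctsg encodes cathepsin G, the third serine protease of the primary granule, and its gene lies apart from the others, in the mast cell protease and granzyme cluster (ENSMUSG00000040314, chromosome 14, 56099881 to 56102574, minus strand). AML1/ETO libraries 1, 2 and 3 stood at 192, 199.7 and 436 CPM. Controls 1 to 5 stood at 142, 108, 230, 142 and 261 CPM. Libraries 1 and 2 lay inside the control range and library 3 above it. The means were 276 ± 139 CPM (SD, n = 3) and 177 ± 65.5 CPM (SD, n = 5), and the difference did not pass (log2 fold change 0.65, SE 0.33, edgeR adjusted p = 0.174). Without AML1/ETO library 3 the estimate was 0.14 (adjusted p = 0.802). Its sign was positive under all 18 alternatives.

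The serine protease genes stood in other ratios to each other in AML1/ETO than in the controls. Ctsg had 9.65, 8.20 and 35.3 reads per Prtn3 read in AML1/ETO libraries 1, 2 and 3, and 0.489 to 0.732 in the controls. Per Mpo read it had 1.12, 0.203 and 0.805 reads in AML1/ETO and 0.114 to 0.160 in the controls. Neither ratio overlapped between the groups. Elane had 0.560 to 0.889 reads per Prtn3 read in the controls and 0.528 in AML1/ETO library 2, against 0 in libraries 1 and 3. These ratios were chosen after the values of the genes were seen and are given without a test. Mpo made up 54.4% to 59.0% of the reads of the 10 genes in the controls and Ctsg 6.71% to 8.87%. In AML1/ETO libraries 1, 2 and 3 Ctsg made up 46.4%, 15.1% and 42.5%.

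**Figure D2:**
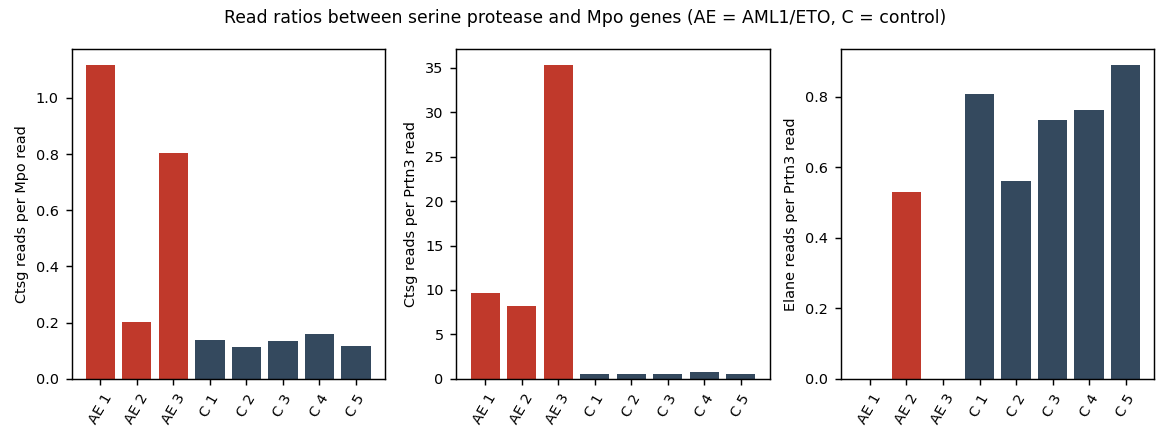
Bars give, for each AML1/ETO (AE, red) and control (C, dark) library, the reads of Ctsg per Mpo read, of Ctsg per Prtn3 read and of Elane per Prtn3 read. Every AML1/ETO library exceeds every control for the first pair of ratios, and the Elane bar is at 0 for AML1/ETO libraries 1 and 3.

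The sequences before the transcription starts of Mpo and these proteases are shown because these genes of 1 granule differ in their calls here: Elane and Prtn3 fell, and Mpo and Ctsg did not pass. They come from RefSeq promoters on GRCm38.p6 (the mm10 assembly), where all 10 members matched. Each runs 5′ to 3′ on the strand of its gene, from 250 bases before the RefSeq start down to the first base that GENCODE annotates as exon. The Prtn3 stretch lies inside the longer gene span that GENCODE gives, between exons. Capitals mark matches to the ETS letters GAGGAA or the RUNX letters TGTGGT on either strand; no match to the C/EBP letters TTNNGNAA lies in these 4 stretches.
Mpo, chr11:87793534-87793580, plus strand: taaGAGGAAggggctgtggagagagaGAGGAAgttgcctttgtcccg
Elane, chr10:79886062-79886246, plus strand: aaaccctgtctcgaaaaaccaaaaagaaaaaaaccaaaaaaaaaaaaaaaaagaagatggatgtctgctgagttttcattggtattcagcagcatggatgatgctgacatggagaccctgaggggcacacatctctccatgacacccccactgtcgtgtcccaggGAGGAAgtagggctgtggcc
Prtn3, chr10:79879417-79879613, plus strand: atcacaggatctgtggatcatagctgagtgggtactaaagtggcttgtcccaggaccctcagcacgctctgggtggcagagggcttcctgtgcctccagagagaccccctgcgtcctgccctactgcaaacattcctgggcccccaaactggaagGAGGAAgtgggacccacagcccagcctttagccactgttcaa
Ctsg, chr14:56102575-56102824, minus strand: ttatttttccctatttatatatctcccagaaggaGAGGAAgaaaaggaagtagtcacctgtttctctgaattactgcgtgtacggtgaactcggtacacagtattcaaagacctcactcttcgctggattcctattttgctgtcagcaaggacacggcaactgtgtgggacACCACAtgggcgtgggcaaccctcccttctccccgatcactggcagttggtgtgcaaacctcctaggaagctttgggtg

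All 4 stretches hold GAGGAA, the core that PU.1 and other ETS factors bind, and Ctsg alone of them holds the RUNX letters, as ACCACA on the opposite strand. Over the full 250 bases before the start, RUNX letters were in the promoters of Ctsg, Lyz2 and S100a9, that is in 3 of 10 members and in 14.0% of 32851 promoters of the same length. ETS letters were in 5 of 10 members and 23.3% of promoters. C/EBP letters were in 5 of 10 members and 36.8% of promoters. A match is a string of letters in this window and does not show binding.

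Ms4a3 encodes a haematopoietic tetraspan protein that marks granulocyte-monocyte progenitors (ENSMUSG00000024681, chromosome 19, 11629496 to 11640851, minus strand). AML1/ETO libraries 1, 2 and 3 stood at 2.20, 2.75 and 3.20 CPM. Controls 1 to 5 stood at 38.3, 18.1, 29.3, 21.8 and 35.5 CPM. The AML1/ETO libraries lay close together and well below the lowest control. Ms4a3 fell 10.5-fold (log2 fold change −3.39, SE 0.40, edgeR adjusted p = 0.000116) and passed under all 18 alternatives. Lyz2 encodes lysozyme, which cleaves bacterial cell walls and is made by macrophages too (ENSMUSG00000069516, chromosome 10, 117277331 to 117282321, minus strand). It stood at 28.2, 48.6 and 33.9 CPM in AML1/ETO and at 67.6, 81.2, 136, 106 and 126 CPM in controls 1 to 5. Its groups did not overlap either, but the step was smaller, at 2.80-fold lower (log2 fold change −1.48, SE 0.28, adjusted p = 0.00226). This call too was kept under all 18 alternatives.

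The later genes differed from most primary ones in how their AML1/ETO reads were spread over libraries. Camp encodes cathelicidin, an antimicrobial peptide precursor of specific granules (ENSMUSG00000038357, chromosome 9, 109847379 to 109849617, minus strand). Its reads numbered 0, 29 and 0 in AML1/ETO libraries 1, 2 and 3, and its level was 22.0, 17.4, 27.8, 16.4 and 30.6 CPM in controls 1 to 5. Ngp, neutrophilic granule protein, is a cystatin-like protein of the same granules (ENSMUSG00000032484, chromosome 9, 110419747 to 110423012, plus strand). Its reads numbered 0, 190 and 0, and its level was 51.2, 30.9, 81.5, 30.7 and 84.9 CPM in the controls. For both genes every AML1/ETO library was below every control. Camp fell from 22.9 to a mean of 0.604 CPM, by −5.19 on the log2 scale (SE 1.13, edgeR adjusted p = 0.00563). Ngp fell from 55.8 to a mean of 3.96 CPM, by −3.80 (SE 1.23, adjusted p = 0.0404).

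S100a8 and S100a9 encode the subunits of calprotectin, a cytosolic metal-binding dimer, and are neighbours on chromosome 3 (ENSMUSG00000056054, 90668978 to 90670035, plus strand; ENSMUSG00000056071, 90692632 to 90695721, minus strand). S100a8 reads numbered 0, 182 and 0 in AML1/ETO libraries 1, 2 and 3, which is 11.4 CPM in library 2. Its controls stood at 42.7, 21.7, 47.8, 19.0 and 39.9 CPM. S100a9 reads numbered 0, 403 and 1, which is 25.2 CPM in library 2, and 30.5, 38.2, 70.1, 36.8 and 67.3 CPM in the controls. Library 2 was close to the lowest control for S100a9 (25.2 against 30.5 CPM) and further below it for S100a8 (11.4 against 19.0 CPM). Libraries 1 and 3 were at or next to 0 for both genes. Neither gene passed: the log2 fold change was −3.16 for S100a8 (SE 1.25, edgeR adjusted p = 0.0852) and −2.52 for S100a9 (SE 1.24, adjusted p = 0.158).

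The calls of S100a8 and S100a9 turned on AML1/ETO library 2. Without it all 4 later members passed as lower, with edgeR adjusted p from 6.48e-06 for S100a9 to 2.61e-05 for Ngp. Against libraries 1 and 3, at a floor of 3 reads per library, controls were at least 108-fold higher for Camp, 264-fold for Ngp and 162-fold for S100a8. S100a9, with 1 read in those libraries, was 1384-fold lower (95% exact Poisson interval 248 to 54682). S100a8 passed with no filter on low counts too (0.0360). Intervals and floors cover counting error only. The Ngp call ended with AML1/ETO library 3 left out (adjusted p = 0.0571) or any 1 control left out (0.0608 to 0.0887), and with DESeq2 (0.110) and limma-voom (0.105). The Camp call was lost when controls 3 and 5 were left out together (0.0638). Zeros at these levels were uncommon in all AML1/ETO libraries. A control mean at or above that of Ngp was held by 4225 genes. Of these, 12, 11 and 27 were at 0 in AML1/ETO libraries 1, 2 and 3. For Camp the counts were 56, 44 and 94 of 7010 genes. These genes were ranked on their control mean, so zeros among the controls cannot be set beside them.

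Relative to the control mean, library 2 retained unlike shares of the members. It held 5.08% of the control level of Elane, 7.45% of Prtn3, 7.93% of Camp and 9.61% of Ms4a3. It held 21.3% of Ngp, 33.2% of S100a8, 47.1% of Lyz2, 51.8% of S100a9, 71.8% of Mpo and 113% of Ctsg. In this 1 library the order of these shares did not follow the split into primary and later members. The primary genes Elane, Prtn3 and Ms4a3 lay below the later genes Ngp, S100a8 and S100a9, while Mpo and Ctsg lay above them. Summed over the later members, levels were 0, 50.2 and 0.0654 CPM in AML1/ETO libraries 1, 2 and 3 and 103 to 227 CPM in the controls. Summed over the primary members they were 415, 1274 and 1028 CPM against 1494 to 3662 CPM. Most of the primary sum in libraries 1 and 3 was Mpo and Ctsg.

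Controls also differed among themselves, and the members did so together. Controls 3 and 5 were the highest pair for 8 of 10 members; the exceptions were Ms4a3 and S100a8, with control 1 among the highest pair. The 10 genes took 0.323% and 0.407% of the counted reads in controls 3 and 5, and 0.163% to 0.1996% in the other controls. In AML1/ETO libraries 1, 2 and 3 they took 0.0373%, 0.129% and 0.0963%. Summed monocyte and macrophage markers, a list of 10 genes, were also highest in controls 3 and 5, at 243 and 351 CPM against 117 to 158 CPM in the other controls. In the AML1/ETO libraries they summed to 22.9 to 59.1 CPM, with Cx3cr1 at 0. Called lower were 4 of the 10, against 14.2% of all tested genes. The part of these markers in the granule levels was not tested.

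On a scale per length (RPKM from the union of annotated exons), Mpo had the highest control level at 401 ± 176, followed by Elane at 258 ± 141, Prtn3 at 189 ± 82.7 and Ctsg at 171 ± 63.4 (SD, n = 5). S100a9 at 93.1 ± 35.7 and Lyz2 at 78.5 ± 21.9 came next, then S100a8, Ngp and Camp at 49.3, 45.7 and 30.2. Each gene overlapped its neighbour in this order down to Camp, and Ms4a3, at 15.2, lay below every control value of Camp. In AML1/ETO the highest level was that of Ctsg at 267 ± 134, with Mpo at 166 ± 119 overlapping it (SD, n = 3). Lyz2 at 28.05 ± 7.99 was next, then S100a9 at 16.1 ± 27.8 and Prtn3 at 10.9 ± 3.50. S100a8, Elane, Ngp, Ms4a3 and Camp followed at 5.46, 4.36, 3.24, 1.44 and 0.797. The levels of S100a9, S100a8, Elane, Ngp and Camp were those of library 2 nearly alone, and their ranges, from 0 or near it, overlapped those of their neighbours in this order.

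A further list of 10 genes was drawn from primary granule proteins and proteins that inhibit, pack or process them, so not all of it is confined to this granule. Of the 9 that passed the filter 5 rose and 1 fell, with a median log2 fold change of 1.04. The shares over all tested genes were 11.6% higher and 14.2% lower. Those that rose were Serpinb1a, the cytosolic inhibitor of elastase, cathepsin G and proteinase 3 (7.69-fold), Cst7, an inhibitor of cysteine cathepsins (9.19-fold), and Cd63, a granule membrane tetraspanin (4.29-fold). Srgn, the proteoglycan core that packs granule proteases, rose 2.17-fold and Gaa, the lysosomal alpha-glucosidase, 2.05-fold. Serpinb1a stood at 433, 414 and 772 CPM in AML1/ETO and at 64.2 to 85.8 CPM in the controls (log2 fold change 2.94, SE 0.21, edgeR adjusted p = 2.85e-06). Prss57, a serine protease of the same granule, fell: it had reads in AML1/ETO library 2 alone, at 1.94 CPM, against 20.4 ± 12.5 CPM in the controls (−4.93, SE 1.29, adjusted p = 0.0149), at least 96.2-fold lower in libraries 1 and 3, and a call lost with limma-voom (0.159) and without controls 3 and 5 (0.0994). Ctsc, the cathepsin that activates the serine proteases, stood at 0.63 on the log2 scale (adjusted p = 0.120) and Gusb, beta-glucuronidase, at 0.49 (0.101), and both passed as higher without AML1/ETO library 1 (0.0231 and 0.0305). Fcnb, a ficolin, at −2.97 (0.216), passed as lower without library 2 (0.00760).

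Several of the genes that rose, such as Srgn, Cd63 and Serpinb1a, are known to be expressed in mast cells as well. Mast cell and basophil markers, a list of 10 genes, summed to 3230, 4940 and 7865 CPM in AML1/ETO libraries 1, 2 and 3 and to 277 to 351 CPM in the controls. Most of the control sum was Gata2, at 220 to 304 CPM there and 731, 914 and 987 CPM in AML1/ETO. In this list 7 of 9 tested genes rose and 1, Prss34, fell, with no AML1/ETO read. Among all tested genes 11.6% rose and 14.2% fell. Cma1, the mast cell chymase, was at 0 in every control and at 120, 62.5 and 262 CPM in AML1/ETO. Serpinb1a, Cd63 and Ctsg were highest in AML1/ETO library 3, as was the sum, most of which was Cpa3, the mast cell carboxypeptidase (1771, 3627 and 6135 CPM). Serpinb1a, Cd63 and Gaa were lower in library 2 than in library 1, unlike the sum. Srgn, Cst7 and Ctsg were lowest in library 1 and highest in library 3, in the order of the sum. The marker Hdc, histidine decarboxylase, was highest in library 1 (487, 208 and 250 CPM). The part of mast cell genes in these levels was not tested.

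The specific granule genes outside the members went lower or did not pass. Of 11 genes, 9 passed the filter, 5 fell and none rose, with a median log2 fold change of −2.94. Over all tested genes 14.2% fell and 11.6% rose. Cybb, the catalytic subunit of the NADPH oxidase, was at 0 throughout AML1/ETO and at 13.3 ± 5.99 CPM in the controls, at least 65.1-fold lower. Its partner Cyba fell 2.12-fold (edgeR adjusted p = 0.0173). Hp, haptoglobin, fell 24.2-fold (0.0195), Chil3, a chitinase-like lectin, 15.4-fold (0.0399) and Pglyrp1, a peptidoglycan recognition protein, 3.51-fold (0.0225). For Hp and Chil3 library 2 held every AML1/ETO read, at 2.37 and 3.81 CPM, and against libraries 1 and 3 alone the controls were at least 90.5-fold and 92.3-fold higher. The calls of Hp, Chil3, Pglyrp1 and Cyba depended on single libraries. Hp was lost without control 5 (0.0598) and Cyba without AML1/ETO library 2 (0.0554). Chil3 was lost without AML1/ETO library 3 or any 1 control (0.0524 to 0.0882), and Pglyrp1 without AML1/ETO library 1 or 2 or control 2 (0.0544 to 0.0745). Ltf, lactoferrin, Lcn2, the siderophore-binding lipocalin, and Cd177 were at 0 in AML1/ETO libraries 1 and 3 and had 11.1, 5.69 and 1.4995 CPM in library 2. They did not pass with edgeR (0.120 to 0.144) and passed as lower without library 2 (0.000236 to 0.00427). In this list 2 genes were called lower with limma-voom, 3 without both first libraries and 1 without controls 3 and 5.

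Genes of the last stages were sparse. Of 12 gelatinase granule and mature neutrophil genes, Ly6g, Fpr1 and Stfa2l1 had no read in any library, and 7 genes passed the filter. Of those 1 rose and 3 fell, against 11.6% and 14.2% of all tested genes. Csf3r, the receptor of G-CSF and present on progenitors too, rose 2.83-fold (log2 fold change 1.503, SE 0.22, edgeR adjusted p = 0.000486). Padi4, which citrullinates histones, fell 1.82-fold (adjusted p = 0.0220). That call was lost without AML1/ETO library 1 or control 2, 3 or 4 (0.0531 to 0.0574). Cxcr2, a chemokine receptor, and Slpi, a protease inhibitor, had no AML1/ETO read and were at least 19.3-fold and 47.1-fold lower. Their control means were 3.93 and 9.59 CPM. Mmp9, gelatinase B, had no AML1/ETO read either and did not pass (0.0552), although it did without control 5 (0.0314). Itgam, an integrin chain, stood at −1.92 (0.368) and Wfdc21 at −0.24 (0.958) on the log2 scale.

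**Figure D3:**
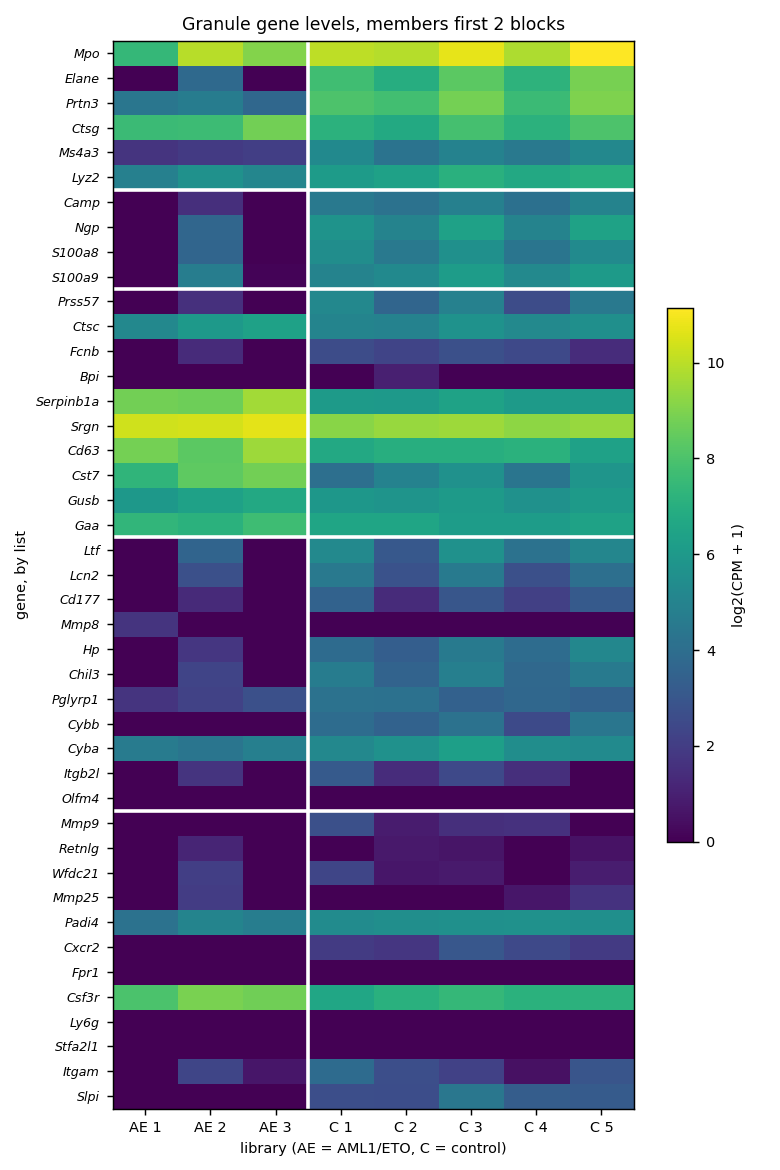
Level as log2(CPM + 1) of the 10 members (upper 2 blocks) and of the other primary, specific and late neutrophil genes in each AML1/ETO (AE) and control (C) library. AML1/ETO library 2 carries a low signal in most of the specific granule rows that are at 0 in libraries 1 and 3, and Srgn, Serpinb1a, Cd63 and Cst7 are brighter in all 3 AML1/ETO libraries.

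**Figure D4:**
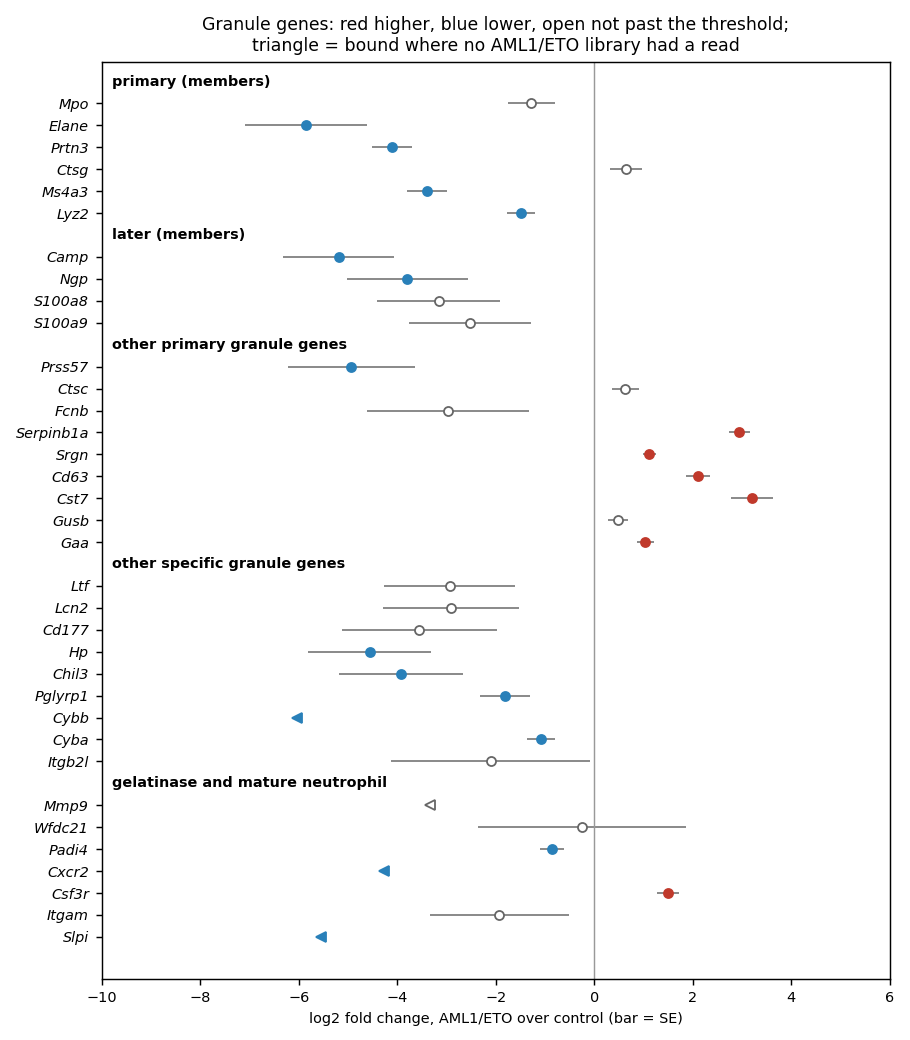
Log2 fold change of AML1/ETO over control with its SE for each tested granule gene, by list; filled red is higher, filled blue lower, open did not pass, and triangles are bounds for genes with no AML1/ETO read. Genes of specific granules lie at or left of −1.08, and 5 genes of the further primary granule list lie right of 1.

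The regulators of granule genes went both ways. Of 10, all tested, 3 rose and 4 fell, with a median log2 fold change of −1.67. Called higher were 11.6% of all tested genes, and lower 14.2%. Spi1, encoding PU.1, fell 6.08-fold, to 62.1, 61.2 and 47.7 CPM from 312 to 424 CPM. Cebpa, the C/EBP factor that opens granulocyte differentiation, fell 19.3-fold, to 4.77, 7.50 and 0 CPM, where controls ranged over 40.4 to 118 CPM (−4.27 on the log2 scale, SE 0.88, edgeR adjusted p = 0.00406). That call was lost with limma-voom (0.0797). Cebpe, which drives specific granule genes, had no AML1/ETO read and 4.84 ± 1.78 CPM in the controls, at least 23.8-fold lower. Irf8, a monocyte and dendritic regulator, fell 5.97-fold. By contrast Gfi1, a repressor needed for granulocytes, rose 16.0-fold to 229, 287 and 309.6 CPM from 8.48 to 33.9 CPM. Cebpb, the C/EBP of emergency granulopoiesis, rose 5.15-fold, and Myb, which activates primary granule genes, 2.97-fold. Cebpd, Runx1 and Klf5 did not pass, at −0.98, 0.49 and −2.37 (0.114, 0.187 and 0.302). Runx1 passed as higher without AML1/ETO library 1 (0.00932) and Klf5 as lower without library 3 (0.00367). The Runx1 count may hold reads from the Runx1 part of the fusion, which could not be told apart from Runx1 itself.

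**Figure D5:**
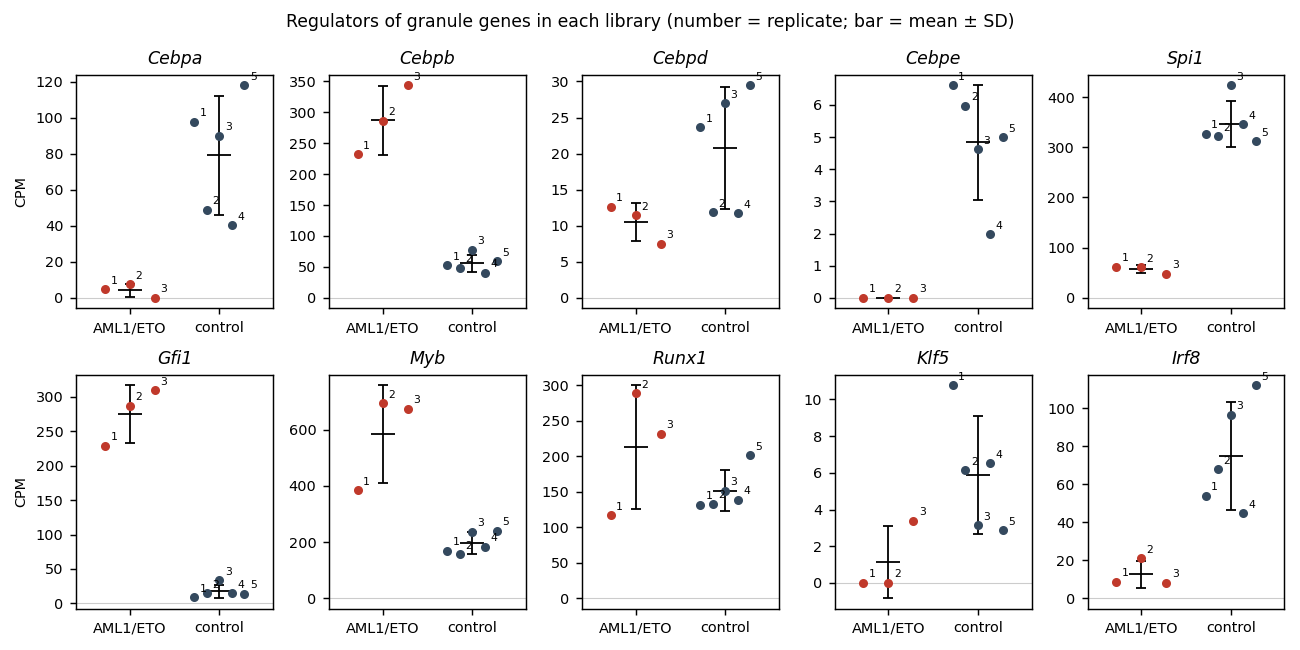
Normalised level (CPM, y axis) of 10 regulators of granule genes in the 3 AML1/ETO (red) and 5 control (dark) libraries; numbers are replicates and bars are mean ± SD. Gfi1, Cebpb and Myb lie above every control in each AML1/ETO library, and Spi1, Cebpa, Cebpe and Irf8 lie below every control.

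The genomic neighbours of the members were taken as the 2 nearest protein-coding genes on each side, a choice made after the values were seen. Most tested neighbours did not pass, and those that did went both ways. Of all tested genes 25.7% were called in either direction. Next to Mpo, Supt4a and Tspoap1 did not pass (−0.12 and 1.16) and Mks1 rose (1.61, edgeR adjusted p = 0.0302). Beyond Elane and Prtn3, Ptbp1 and Med16 did not pass (0.17 and −0.50). Ms4a2, the beta chain of the IgE receptor and the neighbour of Ms4a3, rose to 55.5 from 2.05 CPM (log2 fold change 4.75, adjusted p = 0.00851), against the fall of Ms4a3. Beside Ctsg, Mcpt8, a basophil protease, did not pass (0.91, adjusted p = 0.481), and Mcpt4, a mast cell chymase, had 233 reads in the AML1/ETO libraries and none in the controls. S100a6, in the same cluster as S100a8, fell (−2.10, adjusted p = 0.00389), as did Cdc25a beside Camp (−1.14, adjusted p = 0.0233). Klhl18 beside Ngp rose (0.92, adjusted p = 0.0294). The other tested neighbours, Plppr3, Oosp1, Yeats4, Cpsf6, Nme6, Map4, Scap, Ptpn23 and Kif9, did not pass.

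The genes whose profile over the 8 libraries was closest to that of Mpo, by the root mean square difference of centred log2 CPM among genes at a mean of 5 CPM or more, were Thoc6 (0.25), Dna2 (0.28) and Mcee (0.28). For S100a8 they were Ifngr2 (0.41), Amot (0.44) and Chil3 (0.48). Like S100a8, these last 3 genes had reads in AML1/ETO library 2 and none in libraries 1 and 3. They were picked for likeness over these same libraries, so this pattern is no separate result.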

How the data were processed

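The deposited values are raw read counts per Ensembl gene with a column for each of 8 libraries. The submitters' processing notes list mm10 as the build, with HISAT2 2.0.5 and featureCounts 1.5.0-p3. The sources used here do not give the annotation release, the strand setting or the treatment of reads with several alignments. The test was that of edgeR 4.0.16, run in R 4.3.3 on the counts (filterByExpr, TMM, glmQLFit, glmQLFTest, two-sided, no covariates, all 8 libraries, adjusted p under 0.05), and the procedure was tested on simulated data. The simulated counts were drawn from the means and spreads of these same libraries, and their outcome is not given here. CPM uses TMM-scaled library sizes. SEs come from the F statistic. Coordinates and exon lengths are those of GENCODE M21. Of the called genes 44.9% were higher, and 34.2% with library totals alone, which shifted the median log2 fold change by −0.15. Alternatives were DESeq2 1.42.0, limma-voom 3.58.1 with quality weights, other scalings, a filter of 1 CPM in 3 libraries, none at all, a replicate block, each library left out, both first libraries left out, and, chosen after seeing the data, controls 3 and 5 left out. Members and lists were chosen with earlier results of these data known. Genes named are all members, the listed genes past the threshold and up to 3 others per list by mean CPM. A list's other genes and markers are named where they describe it and were chosen after their values were seen. The B cell, erythroid and sorting marker lists had 0 of 8, 1 of 9 and 7 of 8 tested genes higher and 6, 2 and 0 lower, and monocyte markers 0 and 4 of 10. Over all tested genes 11.6% were higher and 14.2% lower.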

Additional observations from a re-analysis of the deposited data

Results flagged for a closer look

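In the 5 controls, 6 of 89 tested genes of the lists had 1 library far from the other 4 by the gap divided by the range (Dixon's test at 95%), where chance flags about 1 in 20 groups. Control 3 was high for Serpinb1a (85.8 CPM, the others 64.2 to 67.4), Slpi (20.5 CPM, the others 5.22 to 8.67) and Gfi1 (33.9 CPM, the others 8.48 to 15.0). Control 1 was high for Wfdc21 (4.09 CPM, the others 0 to 0.860), control 5 for Runx1 (201 CPM, the others 131 to 151) and control 2 for Hbb-bt (0.117 CPM, the others at 0). The Hbb-bt flag rests on 2 reads, and with the others at 0 any read would have met the rule. No member of the granule set met this rule. Groups of 3 were not tested this way, so AML1/ETO library 2 was not assessed by it.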

How the results depend on the processing

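Of 180 values of the members under alternatives, 161 kept their direction and side of the threshold, 13 lost and 6 gained the threshold, and none changed sign. The cause of each change was not tested, apart from fewer libraries where some were left out. Ms4a3 and Lyz2 were themselves called lower. A recount of the same fit without them left 2 primary members called lower, Elane and Prtn3 (main count 4). The later members called lower (main count 2) numbered 1 with DESeq2, limma-voom or without both first libraries, 0 without controls 3 and 5, and 1 to 4 when 1 library was left out. Without controls 3 and 5, 1175 genes of the whole table were called lower (main count 2128). With the replicate block, 951 genes were higher and 1098 lower (main counts 1734 and 2128), 1 primary member was higher (Ctsg, 0.75, edgeR adjusted p = 0.0412) and 1 later member lower. Controls 4 and 5 share their number with no AML1/ETO library, so under this block they add nothing to the estimated group difference. The labels give no basis for pairing: deviations of same-numbered libraries correlated at 0.0388, −0.0390 and 0.0271 across genes, and not every library correlated best with its own number. Wfdc21, not past the threshold, ranged from −7.39 to 0.95 when 1 library was left out, with the sign changed to 0.33 without AML1/ETO library 1 or 3 and to 0.95 without control 1, and to 1.505 without both first libraries. Depth limits genes under a few CPM, such as Cxcr2 and Cebpe. With 3 AML1/ETO libraries, 1 of them can decide the later granule calls.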
